A study of Salmo salar with 9 samples.

Results

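MHC class II molecules are the surface proteins with which B cells, macrophages and dendritic cells show peptides of taken-up material to helper T cells. Each molecule pairs an alpha chain with a beta chain, and the invariant chain (CD74, named gamma chain in many databases) holds the pair until cathepsins cut it away and a peptide is loaded. In salmonids the classical chains are encoded by the genes DAA (alpha) and DAB (beta), which lie close together and are highly polymorphic, so an alpha allele is usually inherited with a particular beta allele.

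The contigs of these chains were described in head kidney, which makes blood and immune cells in fish, of 9 Atlantic salmon (Salmo salar), 3 per diet. SW1 fish were fed for 42 days with 10% of the brown seaweed Laminaria digitata, SW2 fish with 10% of Oceanfeed, a commercial blend of seaweeds, and FMC fish with the fishmeal-based control diet without seaweed. Lipopolysaccharide (LPS, 6 mg per kg) had been given by injection to every fish 68 to 70 h before sampling, so no uninjected fish is among them and the diets are compared in challenged fish only. Each library is 1 fish, and the head kidney was taken whole with all its cell types.

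Reads had been counted on a pair of references, 48223 S. salar cDNA sequences of NCBI (NCBI reference) and 87600 contigs assembled de novo from the reads of all fish (de novo reference). A sequence of either reference is called a contig. In the NCBI reference, names that contain MHC class II, DAA or DAB were taken, which found 45 contigs. One of them, disabled homolog 2 (dab2), is no class II gene and had 0 counts, which left 44 contigs, 19 alpha and 25 beta. In the de novo reference, descriptions with class II histocompatibility antigen or MHC class II were taken, without those of the gamma chain, which found 11 contigs. They were 5 chains (3 alpha, 2 beta) and 6 contigs of regulators, namely 2 of the class II transactivator CIITA and 4 of the factor RFX1, which were kept out of all sums of chains. Named alleles of 1 gene stand as separate sequences in the NCBI reference, 15 of the 44 contigs had any count, and the other 29 had 0 counts in all 9 fish.

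Counts per fish summed to between 2158027 and 3203677 on the NCBI reference and between 8259299 and 12228633 on the de novo reference. With the unscaled library total, a count of 3 corresponded to 0.936 to 1.39 CPM (counts scaled to a common library total) on the NCBI reference and to 0.245 to 0.363 CPM on the de novo reference. All other CPM use the TMM-scaled total, on which this floor shifts somewhat from fish to fish. SW1 fish 1 and FMC fish 2 lay far from the remaining fish on principal component 1 of both references, and contigs of hemoglobin, the marker of red blood cells, summed to 5970 CPM in SW1 fish 1 and 25200 CPM in FMC fish 2 on the de novo reference, against 1460 to 3070 CPM in the other fish. Marker contigs of B cells had 274 to 401 CPM and those of macrophages 1870 to 3570 CPM in every fish, and all 4 contigs of the kidney tubule list were at 0 on the NCBI reference, with 46.3 to 166 CPM for 3 contigs on the de novo reference. Fish of 1 diet differed by more than sampling noise, with a chi-square per degree of freedom of 5.38 or higher for every pair.

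Class II alleles of the NCBI reference differed between fish of 1 diet in whether they were read at all. Of the 15 contigs with any count, 6 reached at least 10 counts in a fish. The 9 others, among them DAA*0701 with 16 counts over all fish and DAB*0403 with 8, never had more than 3 counts in a fish. With 10 counts as the minimum for a contig to be called read, 3 contigs of the rule were read in SW1 fish 1, SW1 fish 3, SW2 fish 2 and SW2 fish 3, 1 contig in SW1 fish 2, SW2 fish 1 and FMC fish 3, and none in FMC fish 1 and FMC fish 2.

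**Figure D1:**
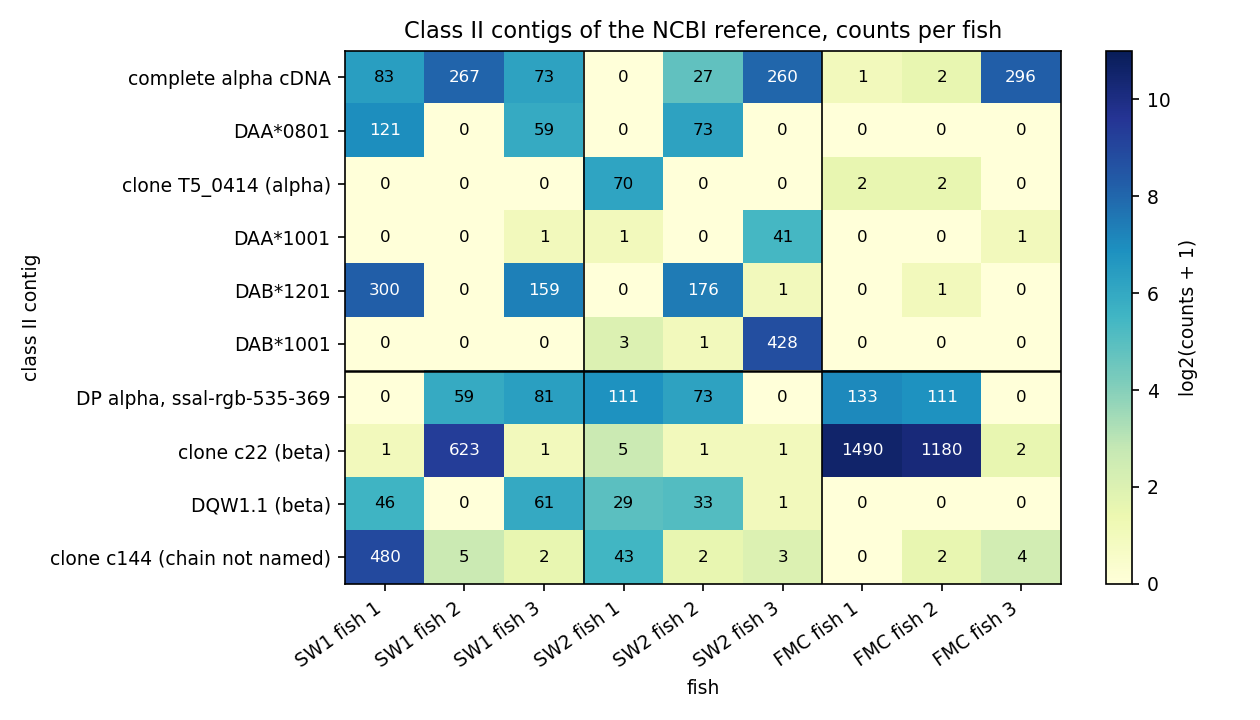
Counts of the class II contigs of the NCBI reference that reached at least 10 counts in a fish, 1 row per contig and 1 column per fish, with color on a log2(counts + 1) scale. The 6 contigs above the thick line were found by name, the 4 below it are class II contigs named differently. DAA*0801 and DAB*1201 are filled in the same 3 fish, and clone c22 in SW1 fish 2, FMC fish 1 and FMC fish 2.

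An MHC class II alpha cDNA with complete coding sequence and no allele name was the contig of the rule read in most fish (6 of 9). It had 83, 267 and 73 counts in the SW1 fish, 0, 27 and 260 counts in the SW2 fish and 1, 2 and 296 counts in the FMC fish. SW2 fish 1, FMC fish 1 and FMC fish 2 were thus at or near 0, and the 3 diets overlapped. In edgeR's quasi-likelihood test its log2 fold change was 0.42 (SE 1.43, unadjusted p = 0.775) in SW1 vs. FMC and -0.11 (SE 1.72, unadjusted p = 0.949) in SW2 vs. FMC. FMC fish 3 decided these values, and only 1 and 2 counts remain in FMC without it. Without it, the log2 fold change was 6.49 in SW1 vs. FMC (unadjusted p = 0.000423) and 5.94 in SW2 vs. FMC (unadjusted p = 0.0302), with no adjusted p below 0.428 under any alternative run. Without SW2 fish 3 it was -2.86 in SW2 vs. FMC, and without SW1 fish 2 it was -0.81 in SW1 vs. FMC.

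The alpha allele DAA*0801 and the beta allele DAB*1201 were read in the same 3 fish and in no other. DAA*0801 had 121, 0 and 59 counts in the SW1 fish, 0, 73 and 0 in the SW2 fish and 0 in every FMC fish. DAB*1201 had 300, 0 and 159 counts in the SW1 fish, 0, 176 and 1 in the SW2 fish and 0, 1 and 0 in the FMC fish. The counts of the alpha allele over those of the beta allele were 0.403 in SW1 fish 1, 0.371 in SW1 fish 3 and 0.415 in SW2 fish 2. This ratio was nearly the same in fish of either seaweed diet, although their counts on DAB*1201 differed. Counts are not divided by contig length, since the tables give no lengths, so the ratio compares fish and not the levels of the chains.

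A second pair, DAA*1001 and DAB*1001, was read in SW2 fish 3 only. DAA*1001 had 0, 0 and 1 counts in the SW1 fish, 1, 0 and 41 in the SW2 fish and 0, 0 and 1 in the FMC fish. DAB*1001 had 0 in every SW1 fish, 3, 1 and 428 in the SW2 fish and 0 in every FMC fish. Here the alpha over beta ratio was 0.096, and the same fish had 260 counts on the complete alpha cDNA. A further alpha contig, clone T5_0414, was read in SW2 fish 1, with 0 counts in every SW1 fish, 70, 0 and 0 in the SW2 fish and 2, 2 and 0 in the FMC fish.

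In no fish was a beta contig of the rule read without an alpha contig, but alpha contigs were read without one. SW1 fish 2 and FMC fish 3 had 267 and 296 counts on the complete alpha cDNA and 1 and 3 counts on all beta contigs of the rule together. SW2 fish 1 had 74 alpha and 4 beta counts in all. FMC fish 1 and FMC fish 2 had 5 alpha counts each, with 0 and 1 beta counts.

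Class II contigs whose names say neither MHC class II nor DAA nor DAB were read in several of these fish. There were 13 such contigs in the NCBI reference, 6 with any count and 4 with at least 10 counts in a fish, and they were looked up after the values of the other contigs had been seen. Clone c22, a class II beta cDNA of S. salar, had 1, 623 and 1 counts in the SW1 fish, 5, 1 and 1 in the SW2 fish and 1490, 1180 and 2 in the FMC fish. It was thus read in SW1 fish 2, FMC fish 1 and FMC fish 2, which had no beta contig of the rule. A DP alpha chain (named after the human gene, clone ssal-rgb-535-369) was read in those 3 fish and in 3 more, with 0, 59 and 81 counts in the SW1 fish, 111, 73 and 0 in the SW2 fish and 133, 111 and 0 in the FMC fish.

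The remaining pair of contigs outside the rule followed other fish. A beta chain named after human DQW1.1 had 46, 0 and 61 counts in the SW1 fish, 29, 33 and 1 in the SW2 fish and 0 in every FMC fish, so it was read in the 3 fish with DAB*1201 and in SW2 fish 1. Clone c144, a class II cDNA whose chain is not named, had 480, 5 and 2 counts in the SW1 fish, 43, 2 and 3 in the SW2 fish and 0, 2 and 4 in the FMC fish. FMC fish 3 had 9 counts on all beta contigs, inside and outside the rule, against 302 on the alpha contigs. With these contigs added, between 1 and 5 class II contigs were read per fish, and SW1 fish 1, SW1 fish 3 and SW2 fish 2 had 5 each.

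**Figure D2:**
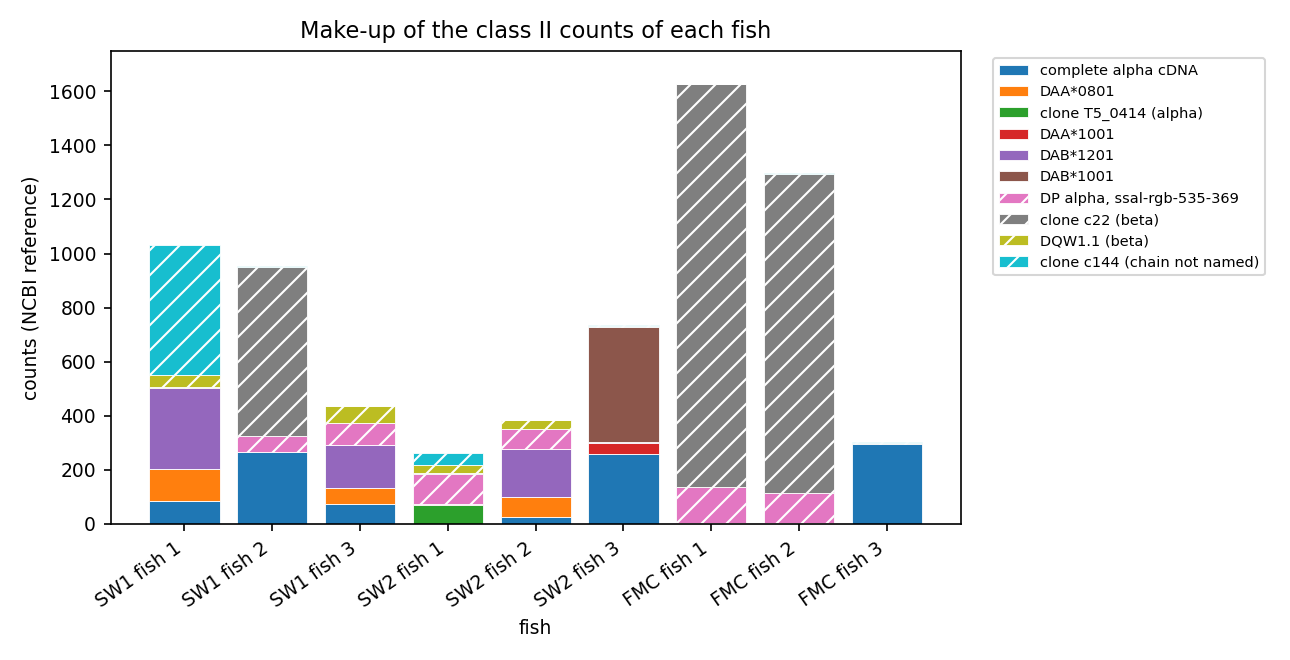
Counts of each fish on the class II contigs of the NCBI reference that reached at least 10 counts in a fish, stacked by contig, with hatched bars for contigs outside the rule. Most counts of FMC fish 1 and FMC fish 2 lie on clone c22, those of SW2 fish 3 on DAB*1001 and the complete alpha cDNA, and those of FMC fish 3 on the complete alpha cDNA.

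For SW1 vs. FMC on the NCBI reference, 3 of the 44 contigs had at least 10 counts over the 6 fish and were tested. None had an adjusted p under 0.05 in the quasi-likelihood test of edgeR after Benjamini-Hochberg adjustment, as for all contigs (0.0% of 22854 called). At an unadjusted p under 0.05 there were 2 of the 3, both higher in SW1, against 1.81% of all contigs tested (413 contigs). They were DAB*1201 (unadjusted p = 0.00165) and DAA*0801 (unadjusted p = 0.00523), which passed only through the 2 SW1 fish that carried reads of them. DESeq2 called 32 of all contigs and none of the class II contigs. Without SW1 fish 1 and FMC fish 2, the libraries that stood apart, the same count of 2 had an unadjusted p under 0.05. DAB*1201 passed the adjusted threshold only when SW1 fish 2 was left out (edgeR adjusted p = 0.0144, with a range from 0.0144 to 1.0 over 12 alternatives).

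For SW2 vs. FMC, 7 of the 44 contigs were tested, and none had an adjusted p under 0.05 (0.0% of 22605 contigs called). There were 4 with an unadjusted p under 0.05, all higher in SW2, against 5.68% of all contigs tested (1285 contigs). DAB*1201 (unadjusted p = 0.0175) and DAA*0801 (unadjusted p = 0.0429) rested on SW2 fish 2, and DAB*1001 (unadjusted p = 0.0214) and DAA*1001 (unadjusted p = 0.03) on SW2 fish 3. Clone T5_0414, which rested on SW2 fish 1, had an unadjusted p of 0.0534. In DESeq2, which called 27 of all contigs, 0 of the 7 had an unadjusted p under 0.05. DESeq2 gave no p-value for at least DAB*1001, so this 0 is in part a missing value. A contig passes the minimum only through the fish in which it is read, so these counts describe the contigs tested and not all 44.

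Of the contigs outside the rule, clone c22 had a log2 fold change of -1.88 (SE 2.0, unadjusted p = 0.369) in SW1 vs. FMC, which was -9.95 (unadjusted p = 0.00518) without SW1 fish 2, and of -8.37 (SE 1.84, unadjusted p = 0.00155, edgeR adjusted p = 0.861) in SW2 vs. FMC. The second difference passed the adjusted threshold in DESeq2 (adjusted p = 0.00621) and without FMC fish 3 in edgeR (adjusted p = 0.0108), with a range from 0.00621 to 1.0 over 11 alternatives. In that comparison c22 passed the count minimum only through FMC fish 1 and FMC fish 2, and FMC fish 3 is the FMC fish in which it was not read. DQW1.1 had unadjusted p-values of 0.00589 in SW1 vs. FMC and 0.00539 in SW2 vs. FMC, and clone c144 of 0.0128 and 0.0499. Without SW1 fish 1 and without SW2 fish 1, the fish with most of its counts, the p of c144 was 0.522 and 0.79. Both contigs passed the count minimum only through the seaweed fish in which they were read. Like c22, they were looked up with the data known, so the p-values of c22, DQW1.1 and c144 are descriptions. With all fish of a comparison, no fold change is given where a diet had 3 counts or fewer in all or counts in fewer than 2 of its fish. Values with a fish left out were not screened in this way. That of c22 without SW1 fish 2 rests on 1 count in each remaining SW1 fish.

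Since alleles of 1 gene are separate contigs, the counts of the chains were also summed per fish and expressed as CPM of the TMM-scaled library. The beta contigs of the rule summed to 86.9, 0.45 and 52.7 CPM in the SW1 fish, 1.67, 77.2 and 171 CPM in the SW2 fish and 0.0, 0.431 and 1.25 CPM in the FMC fish. The means were 46.7 ± 43.6 CPM in SW1, 83.4 ± 84.9 CPM in SW2, against 0.561 ± 0.636 CPM in FMC (SD, n = 3 each). The SW2 and FMC fish did not overlap, but only by 4 counts in SW2 fish 1 against 3 counts in FMC fish 3. On the log2(CPM + 1) scale the difference was 3.68 in SW1 vs. FMC (two-sided exact permutation p = 0.2, adjusted 0.3 over 3 pairs of diets) and 4.48 in SW2 vs. FMC (exact permutation p = 0.1, adjusted 0.3). With 3 fish against 3, 0.1 is the smallest p this test can give. The FMC sums lay near or below the pseudocount of 1, so the size of both differences depends on it. Leaving out 1 fish at a time, the difference lay between 2.58 (without SW1 fish 1) and 5.54 (without SW1 fish 2) in SW1 vs. FMC and between 3.29 (without SW2 fish 3) and 6.3 (without SW2 fish 1) in SW2 vs. FMC.

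The alpha contigs of the rule summed to 59.9, 121 and 44.1 CPM in the SW1 fish, 30.9, 45.1 and 122 CPM in the SW2 fish and 1.71, 2.16 and 126 CPM in the FMC fish. Their means were 74.9 ± 40.4 CPM in SW1, 66.0 ± 48.9 CPM in SW2, against 43.2 ± 71.4 CPM in FMC (SD, n = 3 each), and the highest fish of all was an FMC fish. Differences in mean log2(CPM + 1) were 2.76 in SW1 vs. FMC and 2.46 in SW2 vs. FMC (exact permutation p = 0.4 for either, adjusted 0.6). They were 4.57 and 4.27 without FMC fish 3, and 1.8 and 1.5 without FMC fish 1.

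These sums changed with the contigs that were included. With the class II contigs outside the rule, an alternative chosen after seeing the data, the beta contigs summed to 102, 283 and 73.6 CPM in the SW1 fish, 17.5, 92.8 and 173 CPM in the SW2 fish and 510, 511 and 3.76 CPM in the FMC fish. The FMC fish were then both the highest and the lowest. The difference in beta sums turned to -0.68 in SW2 vs. FMC (exact permutation p = 0.8) and was 0.27 in SW1 vs. FMC (exact permutation p = 1.0). That in summed alpha and beta chains, which here also took in clone c144 with its chain not named, turned to -0.95 in SW2 vs. FMC and -0.37 in SW1 vs. FMC.

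On the de novo reference, which was assembled from the reads of these fish, the class II contig with the most counts was nearly even between fish. Contig 20, a beta chain named after mouse H2-Ab1, had 16841, 13650 and 11136 counts in the SW1 fish, 12777, 10468 and 11467 in the SW2 fish and 12517, 11101 and 13297 in the FMC fish. The class II contigs of the rule on the NCBI reference, alpha and beta together, held 0.0399% to 6.42% as many counts as contig 20 in the same fish. With the contigs outside the rule, clone c144 included, it was 2.12% to 13.0%. Contig 20 is a beta chain only. The beta contigs alone, inside and outside the rule, had 9 counts in FMC fish 3, 42 in SW2 fish 1 and 1493 in FMC fish 1. FMC fish 1, with 0 beta counts in the NCBI rule, thus had 12517 on contig 20, which was within the range of the other fish.

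Contig 20 averaged 1320 ± 450 CPM in SW1, 1200 ± 113 CPM in SW2, against 1270 ± 226 CPM in FMC (SD, n = 3 each). Its levels differed 1.88-fold between the highest fish, SW1 fish 2 with 1820 CPM, and the lowest, SW1 fish 3 with 970 CPM, so the widest spread lay within 1 diet. The log2 fold change was 0.04 (SE 0.363, unadjusted p = 0.905) in SW1 vs. FMC and -0.09 (SE 0.207, unadjusted p = 0.685) in SW2 vs. FMC in edgeR's quasi-likelihood test.

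The other beta chain, contig 75792, named after human HLA-DQB1, had far fewer counts, 15, 29 and 18 in the SW1 fish, 10, 26 and 25 in the SW2 fish and 21, 4 and 7 in the FMC fish. It averaged 2.16 ± 1.51 CPM in SW1, 2.11 ± 0.934 CPM in SW2, against 0.997 ± 0.667 CPM in FMC (SD, n = 3 each). The log2 fold changes were 0.99 (SE 0.599, unadjusted p = 0.125) and 1.01 (SE 0.516, unadjusted p = 0.0756) in SW1 and SW2 vs. FMC, and FMC fish 1 lay above the lowest fish of either seaweed diet. Leaving out 1 fish at a time, they lay between 0.32 (without SW1 fish 2) and 1.71 (without FMC fish 1) in SW1 vs. FMC and between 0.69 (without FMC fish 2) and 1.73 (without FMC fish 1, unadjusted p = 0.0111) in SW2 vs. FMC.

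The 3 alpha chains of the de novo reference are named after rainbow trout (Oncorhynchus mykiss) sequences. Contig 56143, named after onmy-DAA*02, had 70, 46 and 46 counts in the SW1 fish, 29, 30 and 45 in the SW2 fish and 46, 55 and 53 in the FMC fish. All SW2 counts lay below all FMC counts, by 1 count between the nearest fish, while the CPM of the diets overlapped, with 3.57 ± 0.82 CPM in SW2, against 5.37 ± 1.36 CPM in FMC (SD, n = 3 each). The log2 fold change was -0.58 (SE 0.304, unadjusted p = 0.0838) in SW2 vs. FMC and -0.12 (SE 0.342, unadjusted p = 0.737) in SW1 vs. FMC. Contigs 15353 and 41619, both named after the same trout A-Q alpha chain, had between 6 and 28 counts per fish and log2 fold changes between -0.18 and -0.02.

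**Figure D3:**
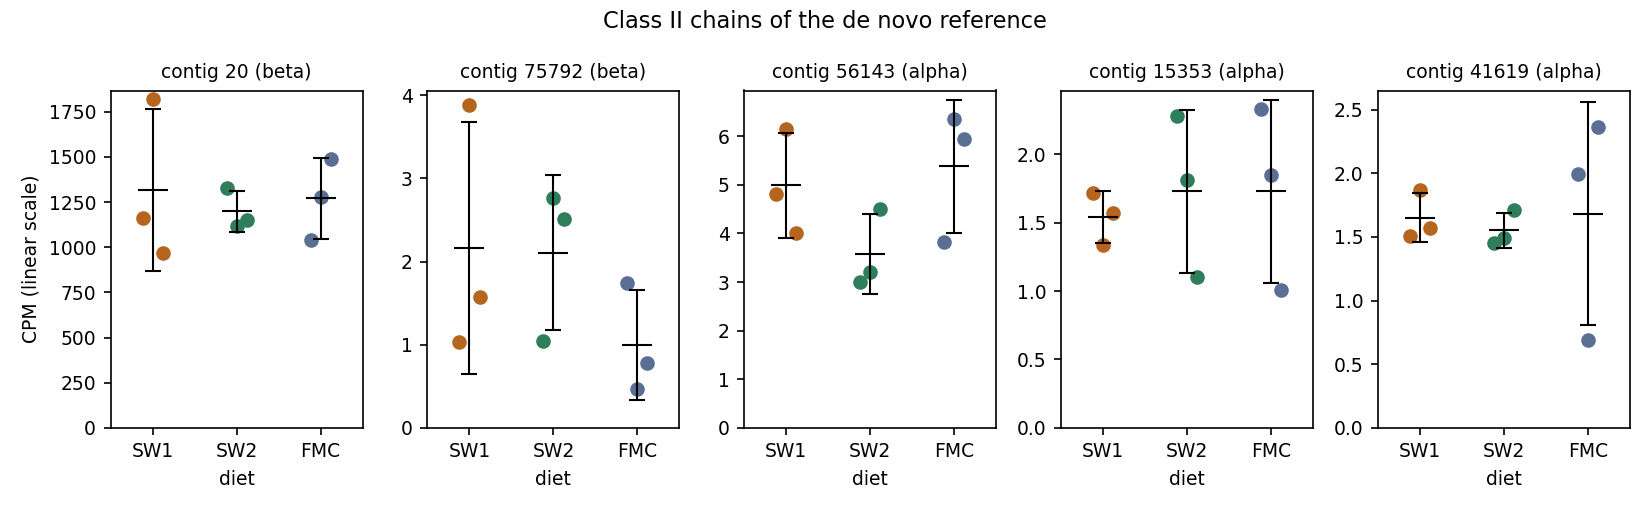
CPM of the 5 class II chains of the de novo reference by diet, on linear axes that start at 0 and differ between panels. Points are fish, and bars give the mean and SD of 3 fish. Contig 20 lies near 1200 to 1320 CPM on average in all 3 diets, and all other chains lie below 7 CPM.

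None of the 5 de novo chains passed the adjusted threshold in edgeR, against 0.00343% of all contigs called in SW1 vs. FMC (3 of 87494) and 0.0% in SW2 vs. FMC (0 of 87309). Nor did any reach an unadjusted p under 0.05, which 1.68% of all contigs did in SW1 vs. FMC (1469 contigs) and 6.02% in SW2 vs. FMC (5255 contigs). DESeq2 gave the same counts of 0 for the 5 chains, with 27 and 37 of all contigs called. The median log2 fold change of the 5 chains was -0.057 in SW1 vs. FMC and -0.086 in SW2 vs. FMC, beside -0.015 and 0.003 over all contigs tested.

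Summed per fish, the alpha chains of the de novo reference had 8.03, 9.36 and 7.14 CPM in the SW1 fish, 6.75, 6.5 and 7.32 CPM in the SW2 fish and 8.14, 8.9 and 9.31 CPM in the FMC fish. All 3 SW2 fish lay below all 3 FMC fish, with means of 6.86 ± 0.421 CPM in SW2, against 8.78 ± 0.593 CPM in FMC (SD, n = 3 each). The difference in mean log2(CPM + 1) was -0.32, with the smallest exact permutation p of 0.1 (adjusted 0.3), and the sums rested on 61 to 117 counts per fish. They held only 0.509% (SW2 fish 1) to 0.783% (FMC fish 1) as many counts as contig 20. FMC fish 3 had 83 counts on them, beside 301 on the alpha contigs of the rule on the NCBI reference. The sums thus describe these contigs and not all class II alpha reads. SW1 fish averaged 8.18 ± 1.11 CPM, with a difference of -0.1 from FMC (exact permutation p = 0.5), and SW2 differed from SW1 by -0.22 (exact permutation p = 0.2). Fewer cells of a type and less RNA per cell cannot be told apart in such bulk samples.

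Marker lists of the cells that carry class II were summed in the same fish. Of the macrophage list on the de novo reference, all 21 contigs had counts and they summed to 2840 to 3570 CPM in the SW2 fish and 1870 to 2660 CPM in the FMC fish, with 5 of 21 higher at an unadjusted p under 0.05 and 0 after adjustment in edgeR (all contigs in either direction, 6.02% and 0.0%). The SW1 fish had 2250 to 3320 CPM, with none of the 21 at an unadjusted p under 0.05. The B cell list (14 contigs, none at 0) summed to 284 to 401 CPM in SW2 and 274 to 388 CPM in FMC, with 2 of 14 lower at an unadjusted p under 0.05, and to 332 to 390 CPM in SW1, with 0 of 14. Dendritic cell markers (11 contigs, none at 0) summed to 182 to 208 CPM in SW1 and 125 to 160 CPM in SW2, against 80.8 to 146 CPM in FMC. All SW1 fish thus lay above all FMC fish, with 2 of 11 contigs higher at an unadjusted p under 0.05 (all contigs in either direction, 1.68%) and 0 after adjustment, while in SW2 vs. FMC 0 of 11 had such a p. This was not particular to dendritic cells. The kidney tubule list (3 contigs) had 104 to 166 CPM in SW1, 66.8 to 93.9 CPM in SW2 and 46.3 to 77.3 CPM in FMC. In SW1 vs. FMC, 1 of its 3 contigs was higher at an unadjusted p under 0.05 and 0 after adjustment. On the NCBI reference the dendritic cell sums of SW1 and FMC overlapped, with 151 to 458 CPM in SW1 and 132 to 249 CPM in FMC. The macrophage list had counts on 1 contig there. It had 5120 to 6630 CPM in SW1 and 5750 to 7020 CPM in SW2, against 3070 to 5050 CPM in FMC. The part of the cell types in the class II sums was not tested.

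Summed beta chains of the de novo reference were 1320 ± 451 CPM in SW1, 1200 ± 112 CPM in SW2, against 1270 ± 226 CPM in FMC (SD, n = 3 each), nearly all from contig 20. The differences in mean log2(CPM + 1) were 0.01 in SW1 vs. FMC (exact permutation p = 1.0), -0.07 in SW2 vs. FMC (exact permutation p = 0.7) and -0.09 in SW2 vs. SW1 (exact permutation p = 0.8). None was larger than the spread between fish.

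Over the 9 fish, the summed alpha chains and the summed beta chains of the de novo reference gave a Pearson r of 0.631 (permutation p = 0.0659, adjusted 0.264 over 4 relations) and a Spearman rho of 0.583 (permutation p = 0.108, adjusted 0.216) on the log2 scale. Without SW2 fish 1 and SW2 fish 2, the fish farthest from the median of the alpha sum, r was 0.85 (permutation p = 0.0141). Within diets, taken as deviations from the diet means, r was 0.888. These values depended on the scaling: as shares of the raw library total, r was 0.581 over the 9 fish, 0.578 (permutation p = 0.177) without SW1 fish 1 and SW2 fish 1, the farthest fish on that scale, and 0.56 within diets. On the NCBI reference r was 0.478 over the 9 fish (permutation p = 0.229), with FMC fish 1 and FMC fish 2 near 0 on both sums. Without these 2 fish r was -0.166 (permutation p = 0.719), and within diets, with all 9 fish, it was 0.139. Over the 9 fish, the relation of the alpha and beta sums had no adjusted p under 0.05 on either reference, and the alpha sum of the de novo reference holds few counts.

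The invariant chain, which both chains need on their way to the peptide, had counts on 5 contigs of the de novo reference, 2 of which never had more than 7 counts in a fish. Contig 619, named after rat Cd74, had 38146, 15162 and 15083 counts in the SW1 fish, 15079, 19067 and 18440 in the SW2 fish and 17758, 22040 and 22589 in the FMC fish. Contig 619 had its most counts in SW1 fish 1, the deepest library. Its CPM was also highest there, with 2620 CPM, beside 2550 and 2530 CPM in FMC fish 2 and FMC fish 3. In CPM it averaged 1990 ± 653 in SW1, 1820 ± 236 in SW2 and 2190 ± 615 in FMC (SD, n = 3 each), with log2 fold changes of -0.15 (SE 0.385, unadjusted p = 0.704) and -0.27 (SE 0.244, unadjusted p = 0.296) in SW1 and SW2 vs. FMC. Contig 1437, named after human CD74, averaged 899 ± 190 CPM in SW1, 797 ± 8.95 CPM in SW2, against 954 ± 136 CPM in FMC, and its log2 fold change in SW2 vs. FMC was -0.26 (SE 0.196, unadjusted p = 0.212).

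Summed class II chains and the summed invariant chain of the de novo reference had a Pearson r of 0.461 over the 9 fish (permutation p = 0.212, adjusted 0.306). The Spearman rho was 0.617 (permutation p = 0.0857, adjusted 0.216). Without FMC fish 3 and SW1 fish 2, the fish farthest from the median of the class II sum, r was 0.516 (permutation p = 0.238), and within diets it was 0.455. As shares of the raw library total, r was 0.63 over the 9 fish (permutation p = 0.0749, adjusted 0.207) and 0.592 within diets. Without the same fish it was 0.896 (permutation p = 0.00952, not adjusted). On the NCBI reference, with TMM scaling, r was 0.338 over the 9 fish (permutation p = 0.372, adjusted 0.372). No relation over the 9 fish had an adjusted p under 0.05.

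**Figure D4:**
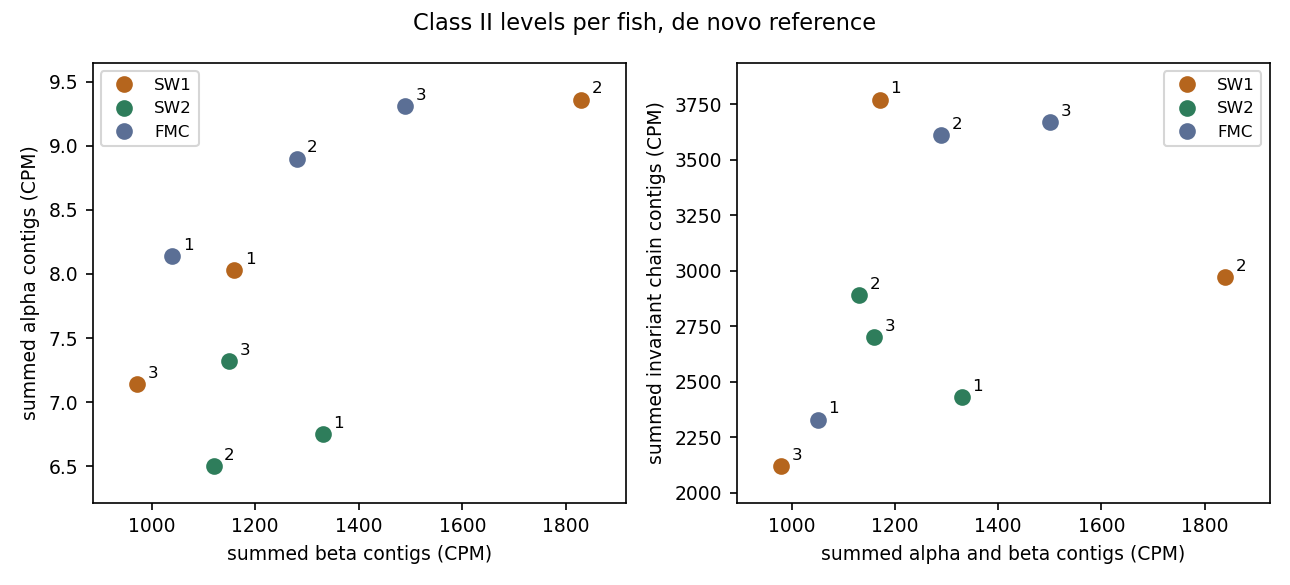
Summed CPM per fish on the de novo reference, with alpha against beta chains on the left and invariant chain against alpha and beta chains on the right. Points are fish, numbered within the diet and colored by it. SW1 fish 2 has the highest class II sum (1840 CPM), and the SW2 fish have alpha sums of 6.5 to 7.32 CPM.

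On the NCBI reference the invariant chain also had a contig that was even and one that was read in a single fish. Clone ssal-evf-537-123 had 154, 226 and 175 counts in the SW1 fish, 147, 142 and 188 in the SW2 fish and 239, 114 and 209 in the FMC fish. Clone ssal-rgf-513-128 had 2, 0 and 1 counts in the SW1 fish, 0, 0 and 116 in the SW2 fish and 1, 0 and 0 in the FMC fish, so its reads lay in SW2 fish 3, the fish with DAA*1001 and DAB*1001.

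The transactivator CIITA, which switches class II genes on, was read on contigs 5898 and 12113. Contig 5898 had 53, 11 and 48 counts in the SW1 fish, 43, 44 and 34 in the SW2 fish and 65, 16 and 37 in the FMC fish, with log2 fold changes of -0.29 (SE 0.466, unadjusted p = 0.548) and 0.12 (SE 0.367, unadjusted p = 0.746) in SW1 and SW2 vs. FMC. Contig 12113 had 48, 16 and 39 counts in the SW1 fish, 36, 34 and 42 in the SW2 fish and 50, 13 and 115 in the FMC fish. Its log2 fold change was -1.05 (SE 0.595, unadjusted p = 0.102) in SW1 vs. FMC and -0.67 (SE 0.565, unadjusted p = 0.258) in SW2 vs. FMC, and FMC fish 3 was the highest. Without FMC fish 3 these values were 0.04 and 0.42. SW1 fish 2, which had the highest level of contig 20, had the lowest level of contig 5898 (1.47 CPM). FMC fish 3, with 1490 CPM of contig 20, had the highest level of contig 12113 (12.9 CPM). A relation of CIITA to the class II chains was not tested. The 4 RFX1 contigs had 0.727 to 7.51 CPM per fish.

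Of the whole list of class II pathway contigs (invariant chain, CIITA, the RFX complex, cathepsins S and L, the thiol reductase GILT and interferon gamma), 28 were tested on the de novo reference and 0 passed the adjusted threshold in either comparison. At an unadjusted p under 0.05, 1 contig of GILT, which unfolds antigens for loading, was lower in SW1 vs. FMC, and 2 cathepsin contigs were higher in SW2 vs. FMC, beside 1.68% and 6.02% of all contigs in either direction. GILT as a whole did not go that way, since 4 of its 6 contigs were above 0 in SW1 vs. FMC and 2 below (median log2 fold change 0.31). Of the 11 cathepsin contigs, 7 were above 0 in SW2 vs. FMC and 4 below (median 0.56). The median log2 fold changes of the 28 contigs were 0.11 and 0.09. Of 37 such contigs on the NCBI reference, 12 had counts and 8 were tested, with 0 past the adjusted threshold in either comparison, and 0 and 1 of the 8 at an unadjusted p under 0.05, beside 1.81% and 5.68% of all contigs.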

How the data were processed

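Head kidney RNA of 9 salmon was sequenced by the authors. Per the labels and the study's methods, they aligned the reads of each fish with TopHat2 2.0.5, removed secondary alignments with SAMtools 0.1.18 and counted reads per sequence with HTSeq 0.5.3p9. The deposited values are unscaled counts of single fish for each contig. How reads that match several alleles were counted is not given in the sources used here, so near-identical alleles can share or lose reads. The deposited tables also hold fold changes and p-values from DESeq, which were not used. Contigs are named by the deposited descriptions, and no sequence or coordinate of them was used here.

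Counts were scaled by TMM and tested with the quasi-likelihood test of edgeR 4.0.16 (R 4.3.3) over all contigs with at least 10 counts in the 6 fish of a comparison, with Benjamini-Hochberg adjustment and a threshold of 0.05. DESeq2 1.42.0 was an alternative. Sums per fish were compared as log2(CPM + 1) by exact permutation in SciPy 1.17.1, and the pseudocount was added because sums of 0 occurred. Only the edgeR fit was tested on simulated counts, which held no contigs read in some fish of a diet and absent in others. Named are class II contigs whose 9 fish together reach 20 counts, the 15 de novo chains with the most counts (5 exist) and up to 3 contigs per related list. Members, lists and rules were chosen with earlier results of these data known. Per the study's methods each fish came from a tank of its own. The p-values of diet comparisons weigh a difference against the spread between the 3 fish of a diet. Those of correlations come from permuted pairings of the fish.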

Additional observations from a re-analysis of the deposited data

How the results depend on the processing

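Depth limits the alleles with few counts, and 3 fish per diet limit all sums. Contig counts on the NCBI reference also depend on which class II names are included. With the contigs outside the rule, chosen after seeing the data, differences of sums turned to 0.06 (alpha, SW2 vs. SW1), -0.68 and -0.95 (beta, SW2 vs. FMC and SW2 vs. SW1), and -0.37 and -0.95 (alpha and beta with clone c144, SW1 and SW2 vs. FMC). As shares of the raw library total, the de novo beta sum and the alpha and beta sum turned to -0.01 in SW1 vs. FMC. The cause of the following changes was not tested.

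Contigs called after adjustment on the NCBI reference in SW1 vs. FMC numbered 8 without a filter on low counts, 32 in DESeq2 and 13 without SW1 fish 1 and FMC fish 2 (chosen after seeing the data), and in SW2 vs. FMC 27 in DESeq2. On the de novo reference they numbered 27 in DESeq2, 1 with all 9 fish in 1 fit and 81 without SW1 fish 1 and FMC fish 2 in SW1 vs. FMC, and 37 in DESeq2 in SW2 vs. FMC. Class II contigs at an unadjusted p under 0.05 numbered 0 in DESeq2 for SW2 vs. FMC on the NCBI reference, where at least DAB*1001 was given no p-value. All contigs at that p numbered, in DESeq2, 269 and 726 (SW1 and SW2 vs. FMC, NCBI) and 884 and 3005 (de novo), and without SW1 fish 1 and FMC fish 2, 768 (NCBI) and 3850 (de novo) in SW1 vs. FMC. Without SW1 fish 1 and FMC fish 2, contig 56143 was at 0.06 and ssal-rgb-535-369 at 0.22 in SW1 vs. FMC.

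The replicate numbers do not pair the fish (correlations of same-numbered fish from -0.264 to 0.135, and the labels give only a number). With the number as a replicate block, called contigs numbered 1 (NCBI) and 0 (de novo) in SW1 vs. FMC and 10 in SW2 vs. FMC (de novo), those at an unadjusted p under 0.05 857 in SW1 vs. FMC (de novo), the class II contigs at an unadjusted p under 0.05 on the NCBI reference 2 in SW1 vs. FMC and 5 in SW2 vs. FMC, and the log2 fold change of the complete alpha cDNA was 0.73 in SW2 vs. FMC, of contig 41619 0.02 in SW1 vs. FMC and of contig 15353 0.01 in SW2 vs. FMC. The smallest p of the paired sum test was 0.25, and the block changed no other call.

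Leaving out 1 fish at a time, called contigs ranged from 0 to 7 in SW1 vs. FMC on either reference, from 0 to 5 (NCBI) and 0 to 7 (de novo) in SW2 vs. FMC. Class II contigs at an unadjusted p under 0.05 ranged from 1 to 4 (NCBI, SW2 vs. FMC), and on the de novo reference from 0 to 1 in SW1 vs. FMC and 0 to 2 in SW2 vs. FMC. Log2 fold changes ranged in SW1 vs. FMC from -0.81 to 6.49 (complete alpha cDNA), -1.50 to 0.04 (contig 12113), -0.25 to 0.03 (1437), -0.44 to 0.12 (15353), -0.25 to 0.22 (20), -0.41 to 0.23 (41619), -0.31 to 0.02 (56143), -0.60 to 0.07 (5898), -0.38 to 0.07 (619) and -0.54 to 0.14 (ssal-evf-537-123). In SW2 vs. FMC they ranged from -2.86 to 5.94 (complete alpha cDNA), -1.10 to 0.42 (12113), -0.28 to 0.28 (15353), -0.21 to 0.05 (20), -0.47 to 0.16 (41619), -0.19 to 0.47 (5898), -0.36 to 0.01 (ssal-evf-537-123) and -1.02 to 0.31 (ssal-rgb-535-369). Clone c22 ranged from -9.95 to -1.26 and from -9.55 to -7.94, and clone c144 from 0.75 to 6.77 and from 0.31 to 3.92, in SW1 and SW2 vs. FMC. For the complete alpha cDNA, c22 and c144, some of these values rest on a diet with 3 counts or fewer left. Differences of sums on the NCBI reference in SW2 vs. SW1 ranged from -0.91 to 0.66 (alpha and beta), -0.86 to 0.12 (alpha) and -1.06 to 2.61 (beta). On the de novo reference, those of beta and of alpha and beta ranged from -0.25 to 0.21 in SW1 vs. FMC, -0.21 to 0.05 in SW2 vs. FMC and -0.28 to 0.17 in SW2 vs. SW1.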

Other observations

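Reads in some fish and none in others of the same diet also occurred on a contig of another gene. Cathepsin S cuts the invariant chain in antigen-presenting cells, and its clone ssal-rgh-519-024 in the NCBI reference had 4, 175 and 372 counts in the SW1 fish, 186, 0 and 415 in the SW2 fish and 0, 3 and 257 in the FMC fish. It was thus near 0 in SW1 fish 1, SW2 fish 2, FMC fish 1 and FMC fish 2. On the de novo reference the 11 contigs of cathepsins S and L together summed to 240, 286, 186 and 288 CPM in these fish, within 167 to 321 CPM over all fish. Most of each sum lay on contig 3439, with 155 to 299 CPM per fish. The sums mix both cathepsins, so they do not give the level of cathepsin S alone.

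RFXANK, a subunit of the complex that binds class II promoters, was at 0 in all 9 fish on each of its 3 contigs of the NCBI reference. A de novo contig named after human RFXANK (contig 18464) had 8.79, 20.3 and 12.7 CPM in the SW1 fish, 14.1, 16.2 and 13.5 CPM in the SW2 fish and 12.0, 14.3 and 11.8 CPM in the FMC fish.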
